A study of Danio rerio with 28 samples.

Results

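The genes described here are the 59 zebrafish genes, of 32520 in the table, whose gene name starts with psma, psmb, psmc, psmd, psme, psmf or psmg and a number. These names belong to the proteasome and its helpers. By role they fall into 10 genes of the alpha ring and 7 constitutive genes of the beta ring, which form the 20S core, 7 ATPases and 14 non-ATPase subunits of the 19S cap, and 9 immunoproteasome genes. The others are 6 assembly chaperones, 4 genes for other activators or an inhibitor, and 2 genes, PSMC3IP and PSME3IP1, whose names meet the rule but whose products are partners of a subunit, not subunits. Names were taken as the supplied gene table spells them, so many are human-style symbols in capitals, and a symbol carried by more than 1 gene is printed with its Ensembl ID. The immunoproteasome genes were PSMB8, PSMB9, PSMB10, PSMB11, psmb11b, psmb12, psmb13a, PSME1 and PSME2.

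The proteasome is the large protease that degrades most proteins marked with ubiquitin in the cytosol and nucleus. Its 20S core is a barrel whose beta subunits carry the cutting sites and whose alpha subunits form the gate, and the 19S cap binds ubiquitin, unfolds the substrate with its ring of ATPases and feeds it into the barrel. In mammals, interferon gamma induces PSMB8, PSMB9 and PSMB10, which take the places of the catalytic subunits PSMB5, PSMB6 and PSMB7 in newly built cores, and PSME1 with PSME2, which form the 11S cap. The resulting immunoproteasome is known for making peptides that fit MHC class I, and phagocytes such as microglia, the resident macrophages of the brain, express it more strongly under inflammation.

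Read counts came from 28 libraries of 100 sorted mpeg1+ cells, taken from dissociated brains of adult fish. All fish carried TgBAC(ccl34b.1:eGFP);Tg(mpeg1:DsRedx), a green reporter under ccl34b.1 regulatory sequence and a red one under the macrophage promoter mpeg1, and each fish gave 1 ccl34b.1+mpeg1+ and 1 ccl34b.1-mpeg1+ library. In the injection experiment, at 6 months of age, 3 fish were injected with E. coli, 4 with PBS, the buffer, and 2 were controls without a listed treatment. In a separate experiment, 5 fish without a listed treatment were taken at 4 months and are called untreated. The site of injection, the dose and the time to collection are not given in the sources used here. The cDNA was made by Smart-seq2 with 24 PCR cycles before a further 12 for the library, with no molecular identifiers, so every count is a count of amplified reads.

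Both gates carry the cell type label microglia, and their markers differed. The gating gene ccl34b.1 had 551 to 11446 CPM (a gene's share of the TMM-scaled library total) in the ccl34b.1+ libraries and 13.01 to 868 CPM in the ccl34b.1- libraries. P2RY12, a receptor that marks mammalian microglia, had 15.0 to 195 CPM in the ccl34b.1+ libraries and 0 to 1.29 CPM in the ccl34b.1- libraries, so that defining marker was at or near 0 in the ccl34b.1- gate. A list of 9 dendritic cell genes, of which CCR7 was at 0 throughout, summed to 340.5 to 896 CPM in the ccl34b.1+ libraries and to 3385 to 21993 CPM in the ccl34b.1- libraries. A list of 9 B cell genes summed to 0 to 6.84 CPM in the ccl34b.1+ libraries and to 0.565 to 2434 CPM in the ccl34b.1- libraries. Untreated ccl34b.1- library 4 had the lowest dendritic cell sum of its gate and the highest B cell sum. Libraries held 14237065 to 30370520 counts at 4 months and 2241693 to 9691032 at 6 months, and levels are compared only within an experiment.

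At 100 cells a library, single genes were caught unevenly. Of the 59 genes, 23 had counts in all 28 libraries, 35 in some, and PSMB11 in none. A count of 0 allowed at most 0.106 to 0.245 CPM at 4 months and 0.304 to 1.47 CPM at 6 months (3 counts, counting error only). The untreated ccl34b.1- libraries stood apart, with 9 to 19 of the 59 genes at 0, against 2 to 8 in the other libraries of both experiments. After a filter on low counts, 53 genes were tested at 4 months and 56 at 6 months. The genes left out of both fits were PSMB11, psmb11b, which had 0.129 CPM in 1 untreated ccl34b.1- library and 0 elsewhere, and PSME4 ENSDARG00000087911, which had 4.17 CPM in 1 control ccl34b.1+ library and 0 elsewhere. PSMD5, PSMC3IP and PSME3IP1 were also left out at 4 months. Levels were not divided by gene length, so no gene is compared with another by level. The map of levels by gene and library shows these gaps.

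**Figure D1:**
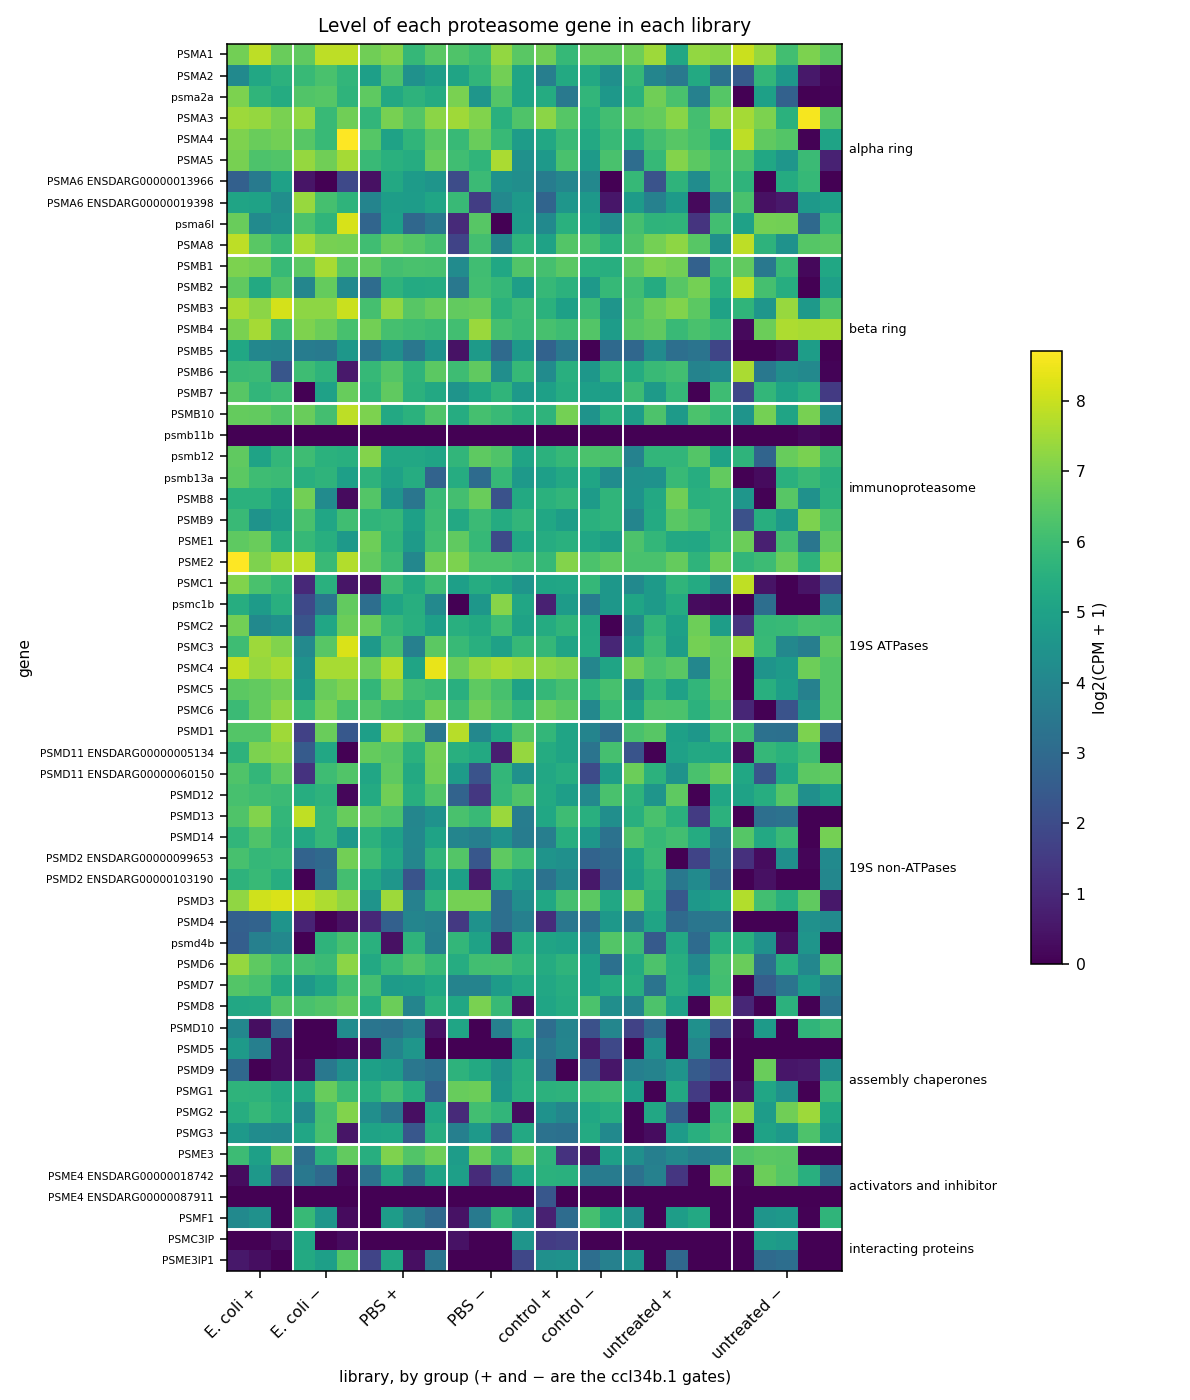
Level of each gene with a count in any library, as log2(CPM + 1), in the 28 libraries (columns, by group, + and − being the ccl34b.1 gates) and by role (rows); PSMB11, at 0 throughout, is left out. Dark cells are values near 0. They are most frequent in the untreated ccl34b.1- libraries (9 to 19 of the 59 genes at 0) and, by role, among the interacting proteins and the activators and inhibitor.

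After E. coli injection the proteasome genes together took a larger share of the counts than after PBS injection, in both gates. Their summed level was 4653, 3919.7 and 3826 CPM in the 3 E. coli ccl34b.1+ libraries, against 2792, 3479, 1979 and 3109 CPM in the 4 PBS ccl34b.1+ libraries. In the ccl34b.1- gate it was 3330.3, 3566 and 4897 CPM after E. coli, against 2694, 3051, 2770.4 and 2436 CPM after PBS. Every E. coli library lay above every PBS library of its gate, and the ratio of the means was 1.46 in ccl34b.1+ cells and 1.44 in ccl34b.1- cells. The control libraries had 2136 and 2423 CPM in the ccl34b.1+ gate and 1837 and 1863 CPM in the ccl34b.1- gate. CPM is a share of a library, so a change in these genes per cell, a change in other genes and a change in which cells were sorted cannot be told apart. No test was made on a sum over the chosen genes.

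The constitutive 20S core showed this separation under every scaling tried. Its 17 genes summed to 1778, 1421 and 1207 CPM in E. coli ccl34b.1+ libraries, against 919, 1181, 812 and 1057 CPM in PBS ccl34b.1+ libraries. In ccl34b.1- cells the sums were 1528, 1498 and 2061 CPM after E. coli, against 876, 1201, 986 and 739 CPM after PBS. The ratio of means was 1.48 in the ccl34b.1+ gate and 1.78 in the ccl34b.1- gate, and the groups did not overlap in either gate with TMM scaling, with plain totals or with DESeq2 size factors. For all 59 genes the same held in ccl34b.1+ cells. In ccl34b.1- cells the sums of all 59 genes overlapped under DESeq2 size factors, with 3236 to 4005 CPM after E. coli, against 2418 to 3315 CPM after PBS.

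The 19S cap followed in the ccl34b.1+ gate. Its 21 genes summed to 1726, 1797 and 1914 CPM after E. coli, against 1031, 1615, 764 and 1387 CPM after PBS in ccl34b.1+ cells, a ratio of means of 1.51 with no overlap under any of the 3 scalings. In ccl34b.1- cells they summed to 882, 1389.5 and 1823 CPM after E. coli, against 1102, 1024, 1247 and 1017 CPM after PBS, and the groups overlapped. The immunoproteasome genes summed to 904, 494 and 490.0 CPM after E. coli, against 653, 292, 205 and 417 CPM after PBS in ccl34b.1+ cells, and to 680.2, 318 and 601 CPM, against 461, 468, 316 and 294 CPM, in ccl34b.1- cells. Both immunoproteasome comparisons overlapped, with ratios of means of 1.61 and 1.39; in the ccl34b.1+ gate they did not overlap when plain totals were used.

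**Figure D2:**
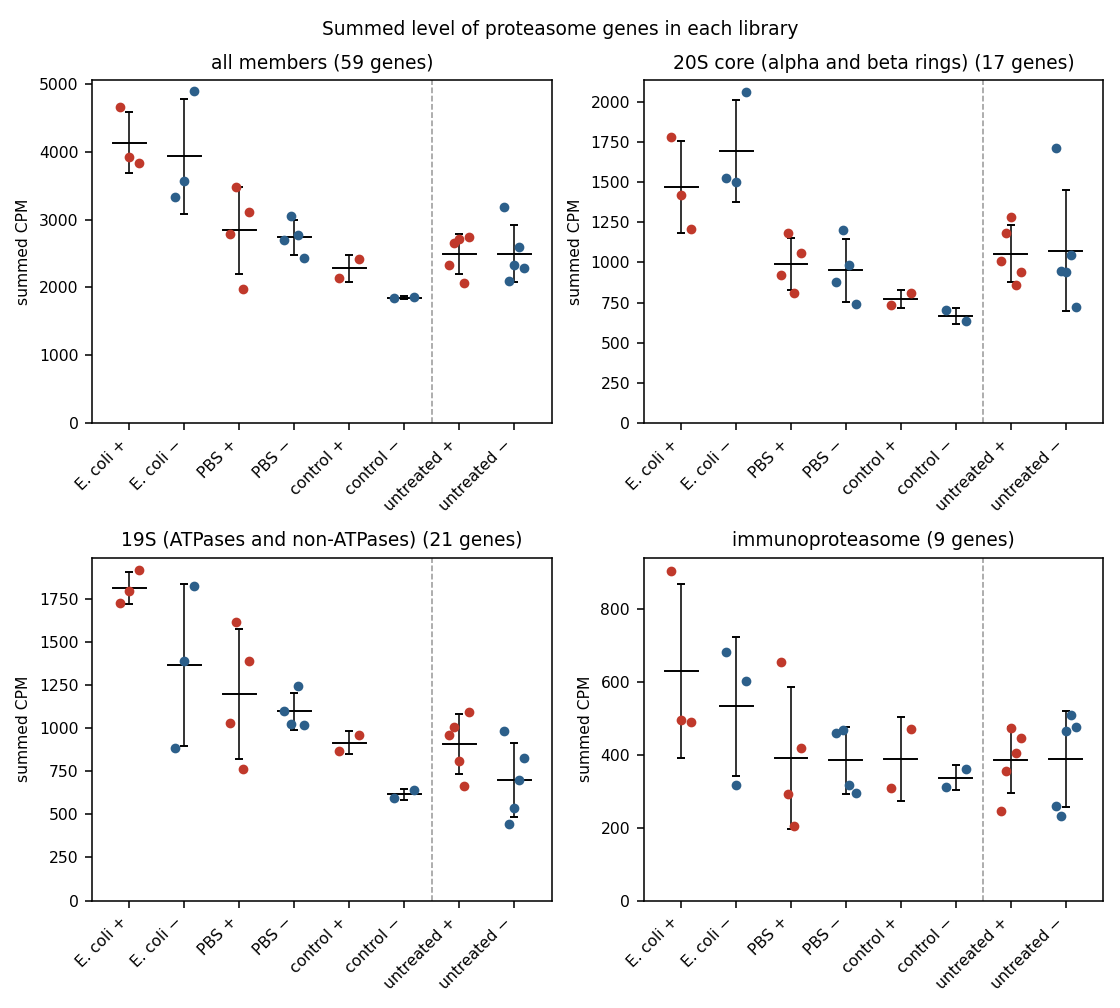
Summed CPM of all 59 genes, the 20S core, the 19S cap and the immunoproteasome genes in each library (dots, red for ccl34b.1+ and blue for ccl34b.1-), with the group mean and SD; a dashed line separates the 6-month from the 4-month experiment. The E. coli libraries of each gate lie above the PBS libraries of that gate for all 59 genes and for the 20S core.

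Cells from E. coli fish were set against PBS fish in each gate to ask how the bacterial challenge differed from injection alone. In ccl34b.1+ cells no proteasome gene passed the edgeR test at an adjusted p under 0.05 (0 of 56, where 1.51% of all genes passed), and 3 had an unadjusted p under 0.05 (5.36%, against 15.9% of all genes). DESeq2 called 1, the interacting protein PSME3IP1, as lower (10.8% of all genes called), and limma voom with quality weights called 1, PSMD3, as higher (5.44% of all genes). The direction was uneven: 41 of 56 fold changes were positive (73.2%, against 41.8% of all genes), with a median log2 fold change of 0.41, against -0.19 over all genes. The groups did not overlap for 6 genes with higher levels (10.7% of 56, against 6.1% of all genes) and for 1 with lower levels (1.79%, against 6.93%). These were PSME2, PSMA4, PSMG2, psmb13a, PSMD14 and PSMD2 ENSDARG00000103190, and, lower, PSMD9. The median SE of a single gene was 1.105 on the log2 scale, which is larger than most of the fold changes.

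Among the core genes in ccl34b.1+ cells, 8 of 10 alpha ring genes and 6 of 7 beta ring genes had positive fold changes, with medians of 0.60 and 0.54 on the log2 scale. PSMA4, an alpha ring subunit, had 129, 104 and 116 CPM after E. coli, against 84.7, 31.3, 51.1 and 88.2 CPM after PBS. The 3 E. coli libraries lay above all 4 PBS libraries, and the log2 fold change was 0.87 ± 0.76 (SE), unadjusted p = 0.263, adjusted p = 0.694. PSMB3, a structural beta subunit without a cutting site, had 196, 146 and 284 CPM after E. coli, against 69.4, 156, 87.1 and 105 CPM after PBS, with 1 PBS library above the lowest E. coli library (1.00 ± 0.62 (SE), unadjusted p = 0.117, adjusted p = 0.439). PSMA1, the alpha ring gene with the highest mean CPM over the 28 libraries, had 116, 232 and 105 CPM, against 111, 136, 55.5 and 88.5 CPM, and these ranges overlapped.

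Of the 19S genes in ccl34b.1+ cells, 6 of 7 ATPases (median log2 fold change 0.42) and 11 of 14 non-ATPases (0.59) had positive fold changes. PSMD3, a scaffold subunit of the lid, had 153, 272 and 299 CPM after E. coli, against 21.8, 171, 13.3 and 51.5 CPM after PBS. The PBS libraries were split, 1 of them lying above the lowest E. coli library, and the log2 fold change was 1.90 ± 0.82 (SE), unadjusted p = 0.0267, adjusted p = 0.285. PSMD3 and PSME2 made the largest contributions to the difference in the summed level, 13.7% and 13.5% of the difference in means, and the 5 largest contributors (PSMD3, PSME2, PSMB3, PSMC3 and PSMA1) made up 45.1%. PSMD14, the deubiquitinase of the lid, had 52.3, 78.9 and 50.2 CPM, against 47.1, 30.4, 15.4 and 32.3 CPM, with no overlap (0.95 ± 1.20 (SE), unadjusted p = 0.433, adjusted p = 0.847).

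The chaperones and other activators did not share that direction in ccl34b.1+ cells. Of 6 assembly chaperones 3 had positive fold changes (median log2 fold change 0.03), and of 3 tested activator or inhibitor genes 1 did (-0.45). PSMD9, a chaperone of 19S base assembly, had 6.71, 0 and 0.213 CPM after E. coli, against 30.0, 26.3, 10.0 and 8.23 CPM after PBS, every E. coli library lying below every PBS library (-3.00 ± 2.09 (SE), unadjusted p = 0.16, adjusted p = 0.53). PSMG2, which with PSMG1 helps to build the alpha ring, had 41.9, 54.3 and 41.9 CPM, against 18.9, 9.71, 0.295 and 34 CPM, again without overlap but in the other direction (1.55 ± 1.41 (SE), unadjusted p = 0.281, adjusted p = 0.718). PSME3IP1, a nuclear protein that binds the PA28 gamma activator PSME3, had 0.463, 0.246 and 0 CPM after E. coli, against 2.44, 35.4, 0.295 and 9.26 CPM after PBS. Its 3 E. coli libraries held 3 counts in all and overlapped the PBS libraries, so no fold is given (unadjusted p = 0.0293, adjusted p = 0.287).

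In ccl34b.1- cells no proteasome gene passed the edgeR test between E. coli and PBS fish (0 of 56, where 0.403% of all genes passed), and 5 had an unadjusted p under 0.05 (8.93%, against 19.5% of all genes). DESeq2 called 3 of the 56, PSME3IP1 as higher and PSMA6 ENSDARG00000013966 and PSMD4 as lower (12.7% of all genes), and limma voom called 1, PSME3IP1, as higher (0.676% of all genes). With TMM scaling 37 of 56 fold changes were positive (66.1%, against 46.3% of all genes), with a median log2 fold change of 0.23, against -0.08. DESeq2 size factors moved the median of all genes to -0.29, and then 28 of 56 proteasome fold changes were positive with a median of 0.02. Relative to the median of all genes the proteasome median was higher by 0.31 with TMM and by 0.30 with size factors. The groups did not overlap for 6 genes with higher levels (10.7%, against 3.34% of all genes) and for 3 with lower levels (5.36%, against 4.42%), PSMD9 among the 3 at 0.203, 10.3 and 19.9 CPM, against 49.2, 38.7, 21.3 and 42 CPM.

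In the alpha ring of this gate 9 of 10 genes had positive fold changes, with a median log2 fold change of 0.90 under TMM. PSMA8, an alpha ring subunit that RefSeq also lists under the older name psma7, had 190.0, 122 and 118 CPM in E. coli ccl34b.1- libraries, against 2.41, 68.7, 14.5 and 49.9 CPM in PBS ccl34b.1- libraries. All 3 E. coli libraries lay above all 4 PBS libraries, with a log2 fold change of 2.08 ± 0.85 (SE), unadjusted p = 0.0203, adjusted p = 0.235. PSMB3 also separated the groups, with 149.7, 151 and 259 CPM after E. coli, against 96.6, 101, 47.2 and 61.2 CPM after PBS (1.29 ± 0.62 (SE), unadjusted p = 0.0473, adjusted p = 0.254). PSMB1, PSMD3 and PSMD14 were the other subunits whose E. coli libraries all lay above the PBS libraries, and PSMD3 and PSMB3 were among the 5 largest contributors to the summed level, which made up 49.5% of its difference (with PSMA4, PSMA8 and psma6l). PSMA4 had 86.0, 57.0 and 414 CPM after E. coli, against 57.4, 104, 57.8 and 27.3 CPM after PBS, with overlap. Its contribution thus came from E. coli library 3, where psma6l was also highest (288 CPM).

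The PSMA6 genes had fold changes of opposite sign in ccl34b.1- cells. PSMA6 ENSDARG00000013966 had 0.406, 0 and 2.83 CPM after E. coli, against 3.1, 60.0, 20.7 and 18.9 CPM after PBS, every E. coli library below every PBS library (-4.50 ± 2.23 (SE), unadjusted p = 0.0521, adjusted p = 0.258). PSMA6 ENSDARG00000019398 had 166, 69.1 and 50.0 CPM after E. coli, against 58.8, 1.96, 15.8 and 24.6 CPM after PBS, with overlap (1.91 ± 1.29 (SE), unadjusted p = 0.151, adjusted p = 0.44). How reads that match both copies were assigned is not given in the sources used here, so the split between the copies is uncertain. The third relative, psma6l, had 75.2, 50.7 and 288 CPM, against 1.03, 87.5, 0 and 26.9 CPM, and overlapped.

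PSMD4, a ubiquitin receptor of the 19S cap, had 0.811, 0 and 0.304 CPM in E. coli ccl34b.1- libraries, against 1.72, 20.8, 8.08 and 13 CPM in PBS ccl34b.1- libraries, all E. coli values lying below the PBS values (-4.77 ± 2.37 (SE), unadjusted p = 0.0527, adjusted p = 0.259). Its paralog psmd4b had 0, 49.6 and 72.3 CPM, against 54, 31.4, 0.646 and 41.5 CPM, and overlapped. PSME3IP1 had 37.9, 29.4 and 84.2 CPM, against 0, 0, 0 and 2.6 CPM, with no overlap (log2 fold change 6.12, unadjusted p = 0.00877, adjusted p = 0.224 by edgeR). PSMD5, a chaperone of 19S base assembly, was counted in 1 E. coli and 1 PBS library of this gate, at 0, 0 and 0.101 CPM, against 0, 0, 0 and 20.9 CPM (unadjusted p = 0.048).

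Marker lists also differed between E. coli and PBS fish. Neutrophil list genes summed to 8.52, 1801 and 2226 CPM in the E. coli ccl34b.1- libraries, against 5.16, 12.1, 0 and 2.37 CPM in the PBS ccl34b.1- libraries, and most of that was MMP9 (0, 1190.0 and 2170.4 CPM after E. coli), with 5 of the 7 listed genes matched and lyz at 0. In the ccl34b.1+ gate the 24 microglia and macrophage genes summed to 16014 to 23426 CPM after E. coli, against 53908 to 77672 CPM after PBS, and P2RY12 had 39.1, 15 and 23.6 CPM, against 45.9, 64.8, 79.4 and 41.2 CPM. Members of this list moved in both directions in that gate. The gene apoeb had 2733, 1782 and 2146 CPM after E. coli, against 25241, 28464, 31118 and 47171 CPM after PBS. MFAP4 ENSDARG00000090783 had 7837, 6486 and 9858 CPM, against 625, 1083, 896 and 1036 CPM. The part of these shifts in the proteasome values was not tested.

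**Figure D3:**
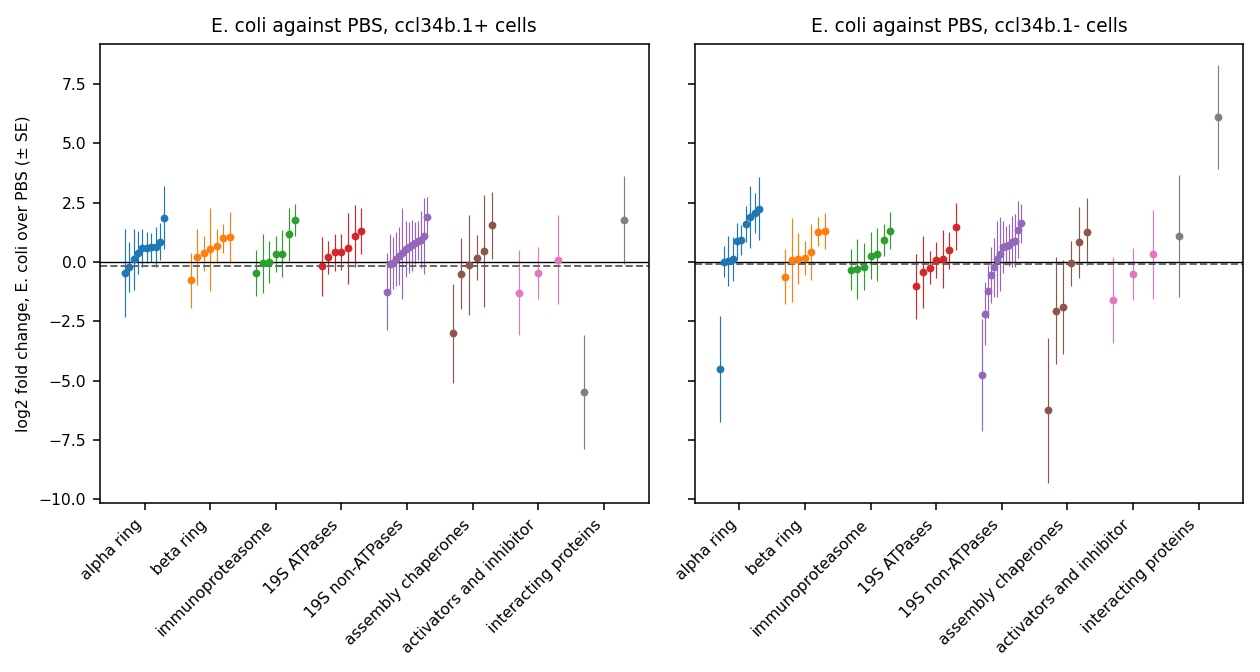
Fitted log2 fold change (E. coli over PBS, edgeR) ± SE of each tested gene, by role, in ccl34b.1+ cells (left) and ccl34b.1- cells (right); the dashed line is the median of all genes tested. In ccl34b.1+ cells 41 of 56 values are positive and in ccl34b.1- cells 37 of 56 (28 of 56 with DESeq2 size factors). Values beyond ± 5 belong to PSME3IP1 and PSMD5, which had 0 to 2.6 CPM in the libraries of 1 group, so their fitted size is uncertain.

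The difference between the gates in their response to E. coli was tested as an interaction, and no proteasome gene passed (0 of 56, where 0.274% of all genes passed). An unadjusted p under 0.05 was reached by 1 gene (1.79%, against 14.0% of all genes), PSME3IP1 (unadjusted p = 0.00148, adjusted p = 0.171). DESeq2 (6.14% of all genes) and limma voom (0.225% of all genes) each called PSME3IP1 alone among the 56. With TMM 31 of 56 interaction values were positive (55.4%, against 47.3% of all genes), meaning a larger E. coli over PBS ratio in ccl34b.1+ cells. With DESeq2 size factors 37 were (66.1%, against 50.3%), and the proteasome median minus the median of all genes was 0.36 and 0.34. Limma voom gave 29 of 56 positive (51.8%, as for all genes) and a difference of -0.03. The proteasome median, 0.18 with TMM, was -0.08 without PBS ccl34b.1+ library 3 and -0.04 without PBS ccl34b.1- library 2. PSMD4 had an interaction of 5.14 ± 2.90 (SE), unadjusted p = 0.0855, adjusted p = 0.439 on the log2 scale. The alpha ring gene PSMA8 had one of -1.43 ± 1.20 (SE), unadjusted p = 0.244, adjusted p = 0.698.

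PBS injection was set against controls without a listed treatment, 4 against 2 fish, to describe the injection itself; these comparisons share the PBS libraries with those above. In ccl34b.1- cells the summed level of all 59 genes, given above, was higher in every PBS library than in both control libraries, with a ratio of means of 1.48, and the 19S cap had 1102, 1024, 1247 and 1017 CPM after PBS, against 593 and 639 CPM in controls, a ratio of 1.78. Neither overlapped under any of the 3 scalings, and the ratio of all 59 genes was 1.44 for E. coli over PBS in that gate. The 20S core had a ratio of 1.42 without overlap, but overlapped with DESeq2 size factors. In ccl34b.1+ cells the sums of all 59 genes overlapped between PBS and control fish, with a ratio of 1.25, and did not when plain totals were used. In ccl34b.1+ cells no proteasome gene passed the edgeR test (0 of 56, as for all genes, 0.0%), 1 had an unadjusted p under 0.05 (1.79%, against 5.06% of all genes), and DESeq2 (0.786% of all genes) and limma voom (1.8%) called none. In ccl34b.1- cells none passed either (0.0% of all genes), 3 had an unadjusted p under 0.05 (5.36%, against 5.17%), and DESeq2 (1.15%) and limma voom (0.274%) called none. The median log2 fold change was 0.32 in ccl34b.1+ cells, against 0.00 over all genes, and 0.64 in ccl34b.1- cells, against 0.18. With limma voom the median in ccl34b.1- cells was 0.03, 28 of 56 being positive, against -0.46 over all genes. Groups did not overlap for 5 genes with higher and 2 with lower levels in ccl34b.1+ cells (8.93% and 3.57%, against 4.46% and 10.1% of all genes). In ccl34b.1- cells they did not overlap for 4 with higher and 1 with lower levels (7.14% and 1.79%, against 3.34% and 6.56%). PSMD9 was among the higher genes in both gates, with 30.0, 26.3, 10.0 and 8.23 CPM after PBS, against 7.59 and 0 CPM in controls, in ccl34b.1+ cells and 49.2, 38.7, 21.3 and 42 CPM, against 3.92 and 0.456 CPM, in ccl34b.1- cells.

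The gene with the smallest p after PBS injection was the 19S ATPase PSMC4 in ccl34b.1- cells. It had 107, 162, 195 and 167 CPM in PBS libraries, against 15.2 and 33.3 CPM in control libraries, without overlap (2.70 ± 0.89 (SE), unadjusted p = 0.00489, adjusted p = 0.943). PSMD1, the large scaffold of the 19S base, had 217, 15.7, 35.5 and 83 CPM, against 14.2 and 7.75 CPM, also without overlap (3.00 ± 1.45 (SE), unadjusted p = 0.0473, adjusted p = 0.954). In ccl34b.1+ cells PSMB3 had 69.4, 156, 87.1 and 105 CPM after PBS, against 46.3 and 29.9 CPM in controls (1.45 ± 0.76 (SE), unadjusted p = 0.0662, adjusted p = 1), and PSME3, the PA28 gamma activator of the nuclear proteasome, had 43.1, 130.3, 81.2 and 110.5 CPM, against 49.7 and 1.44 CPM (1.83 ± 1.35 (SE), unadjusted p = 0.184, adjusted p = 1). Genes at the other end were psma6l in ccl34b.1+ cells (6.19, 29.4, 6.5 and 10.3 CPM after PBS, against 16.7 and 45 CPM; log2 fold change -1.24) and PSMA8 in ccl34b.1- cells (2.41, 68.7, 14.5 and 49.9 CPM, against 71.4 and 44.7 CPM; -0.77), with overlap in both cases. PSMC3IP, a meiotic recombination factor named for binding an ATPase of the cap, was at 0 in all 4 PBS ccl34b.1+ libraries, against 1.9 and 2.16 CPM in the controls (unadjusted p = 0.0445), at least 10.6-fold lower against a floor of 3 counts over the group.

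The gates were compared within each treatment to ask how ccl34b.1+ and ccl34b.1- cells differ, and these comparisons reuse the libraries above. In untreated fish the summed levels overlapped, with 2328, 2652, 2708, 2060.0 and 2736 CPM in ccl34b.1+ libraries, against 3178, 2100.4, 2329, 2599.6 and 2287 CPM in ccl34b.1- libraries, a ratio of means of 0.999. No proteasome gene passed the edgeR test (0 of 53, where 3.71% of all genes passed), none had an unadjusted p under 0.05 (10.6% of all genes did), and none separated the groups (5.16% of all genes were higher and 3.26% lower without overlap). DESeq2 called none (6.87% of all genes) and limma voom called 1, PSMD2 ENSDARG00000103190, as higher (7.24%). PSMD2 ENSDARG00000103190, a copy of a scaffold subunit of the 19S base, had 29, 48.6, 10.2, 16.8 and 7.1 CPM in ccl34b.1+ libraries, against 0, 0.322, 0, 0 and 15.5 CPM in ccl34b.1- libraries. The median log2 fold change of the 53 genes was -0.06, against -0.01 over all genes. That level moved with the fit: limma voom gave a median of 1.28 with 40 of 53 positive, against 0.80 over all genes, and the replicate block gave 0.67 with 41 of 53 positive, against 0.67 over all genes.

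Single genes varied widely among the untreated ccl34b.1- libraries. The alpha ring gene psma2a had 46.9, 112, 74, 13.4 and 84.1 CPM in ccl34b.1+ libraries, against 0, 29.8, 5.45, 0 and 0.055 CPM in ccl34b.1- libraries (3.22 ± 1.88 (SE), unadjusted p = 0.107, adjusted p = 0.683), and the lid subunit PSMD13 had 44.1, 72.4, 45.9, 1.89 and 47.1 CPM, against 0, 8.18, 8.75, 0 and 0 CPM (3.64 ± 2.15 (SE), unadjusted p = 0.112, adjusted p = 0.697). In both, 4 of 5 ccl34b.1+ libraries lay above every ccl34b.1- library. PSMG2 lay the other way, at 0.038, 36.5, 4.97, 0.039 and 54.1 CPM, against 144, 27.2, 111, 173 and 35.4 CPM (-2.36 ± 1.47 (SE), unadjusted p = 0.129, adjusted p = 0.733), with overlap. PSMA3, an alpha ring gene, had 91.3, 100.3, 142, 68.9 and 145 CPM, against 185, 127, 46.2, 384 and 85.6 CPM, and overlapped as well (log2 fold change -0.60). All 5 tested chaperones had negative fold changes, with a median of -1.14 on the log2 scale. All 6 chaperones, with the untested PSMD5 included, summed to 44.5, 78.2, 92.1, 84.9 and 123 CPM, against 144, 224, 158, 300.5 and 203 CPM. These sums did not overlap with TMM scaling, and no other scaling was tried for the chaperones. Single genes made up much of some sums, with PSMG2 at 144 CPM in ccl34b.1- library 1 and PSMD9 at 104.6 CPM in library 2. With limma voom or the replicate block 3 of the 5 tested chaperones had negative fold changes. The count of genes at 0 was 5 to 8 in ccl34b.1+ libraries and 9 to 19 in ccl34b.1- libraries. The chaperone sum was thus higher in the gate with more genes at 0, and the part of that count in these values was not tested. In control fish the 6 chaperones summed to 102 and 101 CPM in ccl34b.1+ libraries, against 141 and 140 CPM in ccl34b.1- libraries, also without overlap with TMM scaling. In PBS and E. coli fish their sums overlapped with TMM scaling, with ratios of means of 0.64 and 0.70.

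In control fish, with 2 libraries a gate, the summed level was 2136 and 2423 CPM in ccl34b.1+ libraries, against 1837 and 1863 CPM in ccl34b.1- libraries. The ratio of means was 1.23, but the sums overlapped when plain totals were used. The 19S cap had 869 and 962 CPM, against 593 and 639 CPM, a ratio of 1.49, without overlap under any of the 3 scalings. The 20S core (ratio 1.16) overlapped with plain totals and with DESeq2 size factors. The immunoproteasome genes (ratio 1.15) overlapped under all 3 scalings. No gene passed the edgeR test (0 of 56, where 0.869% of all genes passed), 1 had an unadjusted p under 0.05 (1.79%, against 5.56% of all genes), and DESeq2 (4.55%) and limma voom (5.41%) called none. Groups did not overlap for 17 genes with higher and 6 with lower levels (30.4% and 10.7%, against 22.5% and 17.8% of all genes). PSMC4 had 148 and 136 CPM in ccl34b.1+ libraries, against 15.2 and 33.3 CPM in ccl34b.1- libraries (2.55 ± 0.95 (SE), unadjusted p = 0.0112, adjusted p = 0.442). PSMC6, another ATPase of the ring, had 109 and 90.8 CPM, against 15.7 and 57.4 CPM (1.45 ± 1.01 (SE), unadjusted p = 0.161, adjusted p = 0.801). PSMF1, a core inhibitor also known as PI31, had 0.759 and 7.56 CPM, against 69.5 and 34.7 CPM (-3.63 ± 2.72 (SE), unadjusted p = 0.191, adjusted p = 0.835), and PSMG3, an alpha ring chaperone, had 8.73 and 8.28 CPM, against 39.1 and 16.4 CPM (log2 fold change -1.70).

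In PBS fish the gates had 2792, 3479, 1979 and 3109 CPM (ccl34b.1+) and 2694, 3051, 2770.4 and 2436 CPM (ccl34b.1-) in all, a ratio of means of 1.04 with overlap. No gene passed the edgeR test (0 of 56, where 2.69% of all genes passed), DESeq2 (11.7% of all genes) and limma voom (5.76%) called none, and 2 had an unadjusted p under 0.05 (3.57%, against 19.8%). Those were the interacting proteins, PSMC3IP, at 0 in the ccl34b.1+ libraries, against 0.344, 0, 0 and 22.2 CPM in the ccl34b.1- libraries, and PSME3IP1, at 2.44, 35.4, 0.295 and 9.26 CPM, against 0, 0, 0 and 2.6 CPM. No proteasome gene separated the gates, where 5.1% of all genes were higher and 4.81% lower without overlap. With TMM 28 of 56 fold changes were positive and with DESeq2 size factors 20 were, and the median minus that of all genes was 0.11 and 0.10. PSMA8 had 64.6, 99.3, 84.2 and 70.3 CPM in ccl34b.1+ libraries, against 2.41, 68.7, 14.5 and 49.9 CPM in ccl34b.1- libraries (1.23 ± 0.79 (SE), unadjusted p = 0.132, adjusted p = 0.452), and psma6l had 6.19, 29.4, 6.5 and 10.3 CPM, against 1.03, 87.5, 0 and 26.9 CPM (log2 fold change -1.14). No direction is given for psma6l, since limma voom (1.65), the replicate block (0.86) and the fit without PBS ccl34b.1- library 2 (0.48) turned its sign.

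After E. coli the gates had 4653, 3919.7 and 3826 CPM (ccl34b.1+) and 3330.3, 3566 and 4897 CPM (ccl34b.1-), with overlap and a ratio of means of 1.05. The roles differed in direction, with ratios of 0.87 for the 20S core, 1.33 for the 19S cap and 1.18 for the immunoproteasome genes. The 19S sums were 1726, 1797 and 1914 CPM, against 882, 1389.5 and 1823 CPM. They overlapped with TMM, but not with plain totals or DESeq2 size factors. The core and the immunoproteasome sums overlapped under all 3 scalings. No gene passed the edgeR test (0 of 56, where 2.31% of all genes passed) and 3 had an unadjusted p under 0.05 (5.36%, against 21.2% of all genes). DESeq2 called 3, PSMD4 and PSMD5 as higher and PSME3IP1 as lower in ccl34b.1+ cells (16.9% of all genes), and limma voom called PSME3IP1 (3.84%). Groups did not overlap for 7 genes with higher and 3 with lower levels (12.5% and 5.36%, against 8.12% and 7.06% of all genes). PSMD11 ENSDARG00000005134, a lid subunit, had 49.3, 126 and 143 CPM in ccl34b.1+ libraries, against 4.66, 36.3 and 0 CPM in ccl34b.1- libraries (2.96 ± 1.41 (SE), unadjusted p = 0.0442, adjusted p = 0.226), while its copy PSMD11 ENSDARG00000060150 had 79.3, 54.1 and 93.6 CPM, against 1.42, 63.9 and 80.8 CPM, and overlapped. PSMD4 had 5.32, 5.9 and 21.9 CPM, against 0.811, 0 and 0.304 CPM (4.79 ± 2.41 (SE), unadjusted p = 0.0559, adjusted p = 0.245). PSMC1, an ATPase of the ring, had 133, 73.3 and 53.2 CPM, against 1.01, 45.1 and 0.405 CPM (2.48 ± 1.49 (SE), unadjusted p = 0.106, adjusted p = 0.339). Without E. coli ccl34b.1- library 2, edgeR called PSMC1 and PSMD1 as higher in ccl34b.1+ cells, with adjusted p of 0.0466 and 0.0479.

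**Figure D4:**
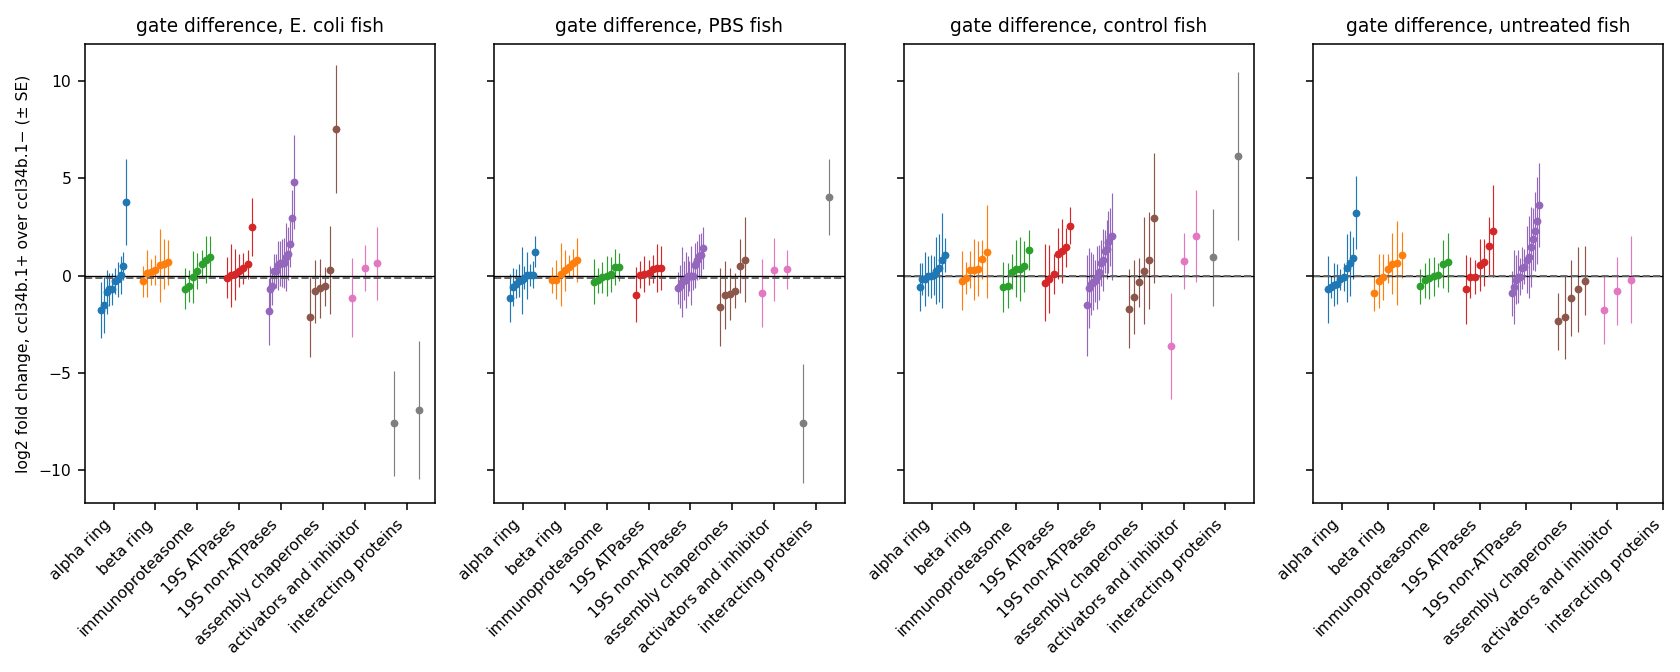
Fitted log2 fold change (ccl34b.1+ over ccl34b.1-, edgeR) ± SE of each tested gene by role in E. coli, PBS, control and untreated fish; the dashed line is the median of all genes tested. Positive fold changes numbered 34 of 56, 28 of 56, 35 of 56 and 24 of 53 (20 of 56 in PBS fish with DESeq2 size factors); no gene passed the test.

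The immunoproteasome genes were counted in untreated and control fish as well as after injection. In ccl34b.1+ cells 5 of 7 had positive E. coli over PBS fold changes (median log2 fold change 0.35) and in ccl34b.1- cells 4 of 7 did (0.27). No immunoproteasome gene passed the edgeR test in any of the 9 comparisons, where 0.0% to 3.71% of all genes passed. PSME2, a subunit of the 11S cap, had 419.6, 129 and 191 CPM in E. coli ccl34b.1+ libraries, against 97.2, 60.1, 15.4 and 114 CPM in PBS ccl34b.1+ libraries. All 3 E. coli libraries were above all 4 PBS libraries, with 1 far above the rest, and the log2 fold change was 1.78 ± 0.68 (SE), unadjusted p = 0.0132, adjusted p = 0.25. In ccl34b.1- cells PSME2 had 223, 58.5 and 207 CPM, against 127, 75.2, 74.3 and 64.5 CPM, with overlap (0.94 ± 0.67 (SE), unadjusted p = 0.175, adjusted p = 0.479). Its partner PSME1 had 93, 105 and 44.2 CPM after E. coli, against 109, 51, 26 and 66.6 CPM after PBS in ccl34b.1+ cells, and 56.2, 43.5 and 24.7 CPM, against 94.2, 56.9, 2.91 and 35.3 CPM, in ccl34b.1- cells, overlapping in both gates. The interaction value of PSME2 was 0.85 ± 0.96 (SE), unadjusted p = 0.384, adjusted p = 0.837.

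The catalytic immunosubunits overlapped between E. coli and PBS fish in both gates. PSMB8, which replaces PSMB5, had 46.7, 46.5 and 32.1 CPM after E. coli, against 82.4, 22.6, 9.74 and 58.3 CPM after PBS in ccl34b.1+ cells, and 115, 17.3 and 0.202 CPM, against 67.8, 106, 3.55 and 38.6 CPM, in ccl34b.1- cells. PSMB9, which replaces PSMB6, had 58.5, 21.1 and 28.3 CPM, against 51.6, 54.5, 30.1 and 61.8 CPM, in ccl34b.1+ cells and 73.2, 34.5 and 64.5 CPM, against 37.1, 60.0, 40.4 and 52.6 CPM, in ccl34b.1- cells. PSMB10, which replaces PSMB7, had 99.7, 97.1 and 80.0 CPM, against 128, 37.6, 46.4 and 77.9 CPM, in ccl34b.1+ cells and 105, 68.2 and 230.3 CPM, against 40.9, 69, 59.4 and 45 CPM, in ccl34b.1- cells. The log2 fold changes in ccl34b.1+ cells were -0.05 ± 1.25 for PSMB8, -0.46 ± 0.99 for PSMB9 and 0.35 ± 0.77 for PSMB10 (SE). In ccl34b.1- cells they were -0.29 ± 1.26, 0.27 ± 0.98 and 1.33 ± 0.77 (SE), with PSMB10 having the smallest unadjusted p, 0.0923, and an adjusted p of 0.329. The sign for PSMB8 was reversed by limma voom in ccl34b.1+ cells (log2 fold change 0.35), so no direction is given for it.

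The remaining immunoproteasome genes are fish relatives of the catalytic beta subunits. The gene psmb13a had 90.7, 63.4 and 60.6 CPM in E. coli ccl34b.1+ libraries, against 49.2, 30.4, 41.3 and 5.83 CPM in PBS ccl34b.1+ libraries, without overlap (1.17 ± 1.11 (SE), unadjusted p = 0.298, adjusted p = 0.736). In ccl34b.1- cells psmb13a had 43.8, 49.3 and 29.3 CPM, against 41.6, 7.29, 55.9 and 24.8 CPM, and overlapped. The gene psmb12 had 96.2, 32 and 53.4 CPM, against 136, 36, 36.3 and 32.9 CPM, in ccl34b.1+ cells and 63.9, 46.4 and 44.5 CPM, against 51.9, 93.7, 79.1 and 32.7 CPM, in ccl34b.1- cells, also overlapping. In control fish the 7 tested genes had 46.7 and 52.2 CPM (PSMB8), 35.7 and 28.1 CPM (PSMB9), 50.1 and 117 CPM (PSMB10), 47.4 and 56.2 CPM (psmb12), 29.2 and 37.1 CPM (psmb13a), 41.4 and 45 CPM (PSME1) and 56.9 and 135 CPM (PSME2) in the ccl34b.1+ gate. In untreated fish PSMB8 had 21, 37.5, 113, 45.4 and 50.0 CPM in ccl34b.1+ libraries, against 22.8, 0.046, 86.8, 20.3 and 47.4 CPM in ccl34b.1- libraries, and the 9 immunoproteasome genes summed to 246, 355, 474, 405 and 446 CPM, against 259, 232, 464, 508 and 475 CPM.

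**Figure D5:**
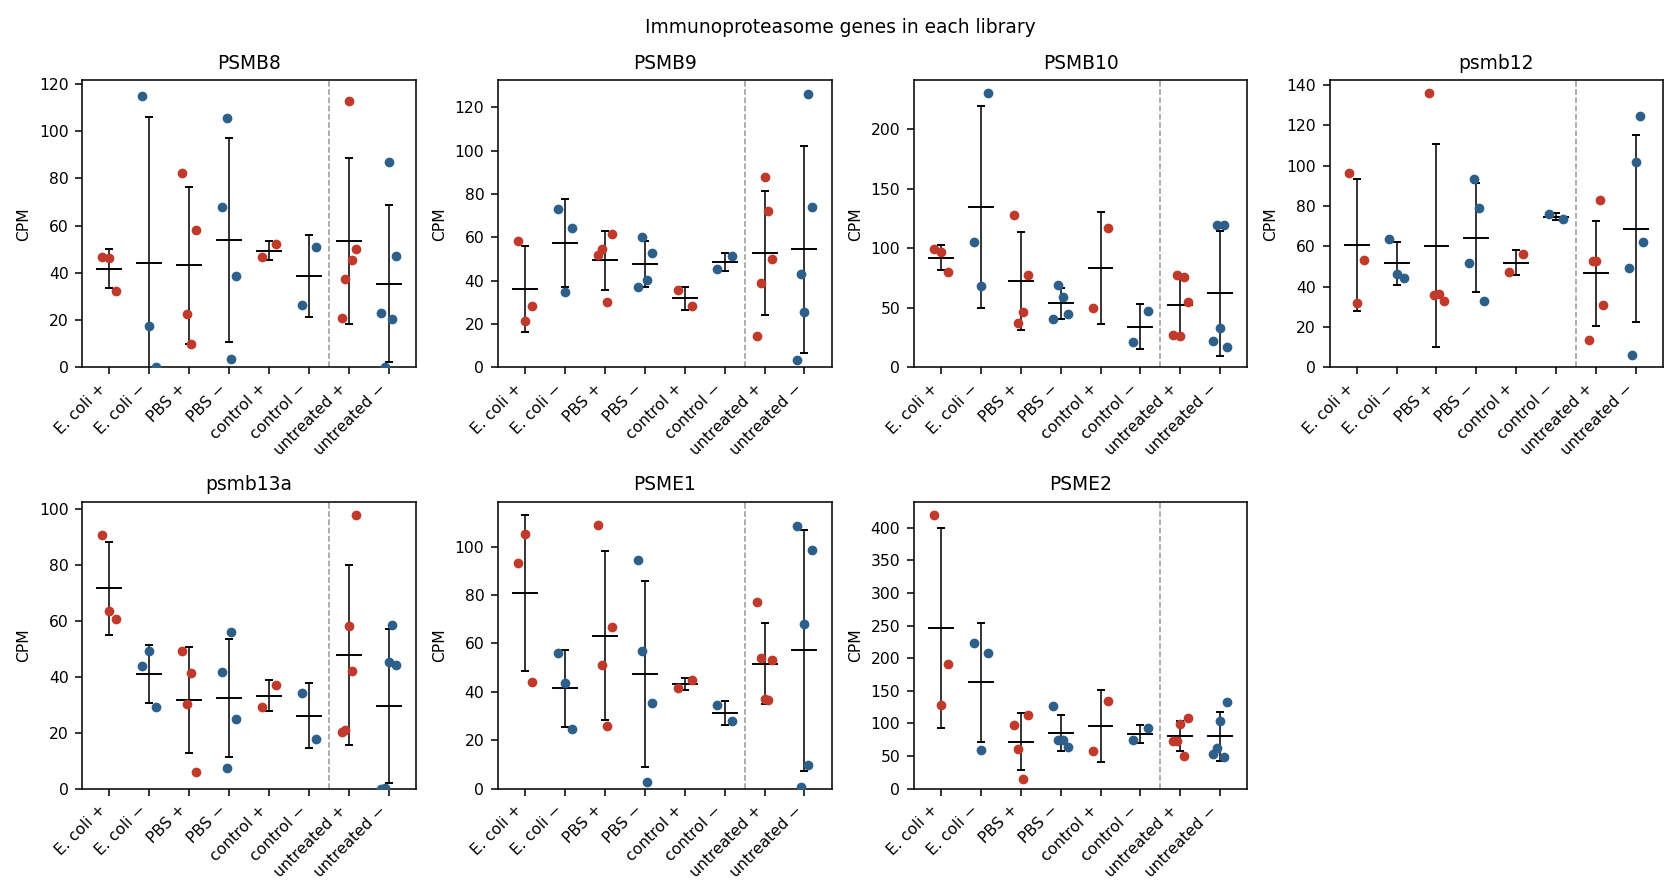
CPM of the 7 tested immunoproteasome genes in each library (dots, red for ccl34b.1+ and blue for ccl34b.1-), with the group mean and SD, bars being cut at 0; a dashed line separates the 6-month from the 4-month experiment. PSME2 and psmb13a in ccl34b.1+ cells are the only panels where all E. coli libraries lie above all PBS libraries of a gate.

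The balance of immunosubunits to their constitutive counterparts was taken within each library from the counts. It is the log2 ratio of the summed counts of PSMB8, PSMB9 and PSMB10 to those of PSMB5, PSMB6 and PSMB7, with 0.5 added to each sum. Within 1 library this ratio does not depend on the scaling, though it still compares genes of unlike length, so only its differences between groups can be read. It was 0.19, 0.36 and 0.79 in E. coli ccl34b.1+ libraries, against 1.18, -0.78, -0.31 and 0.40 in PBS ccl34b.1+ libraries. In ccl34b.1- cells it was 1.96, 0.39 and 1.23 after E. coli, against 0.77, 0.60, 0.41 and 0.36 after PBS. Both pairs of groups overlapped, with means of 0.45 ± 0.31 and 0.12 ± 0.86 in ccl34b.1+ cells (SD, E. coli n = 3, PBS n = 4) and 1.19 ± 0.78 and 0.54 ± 0.19 in ccl34b.1- cells (SD, E. coli n = 3, PBS n = 4). The control libraries had 1.30 and 1.04 in the ccl34b.1+ gate and 0.81 and 0.80 in the ccl34b.1- gate. In untreated fish it was -0.80, 0.58, 0.81, 3.07 and 0.89 in ccl34b.1+ libraries, against -2.04, 1.35, 1.49, 1.58 and 6.20 in ccl34b.1- libraries. In the ccl34b.1- library with the highest ratio, library 5, PSMB5, PSMB6 and PSMB7 had 0, 0.055 and 1.80 CPM. In the library with the lowest, library 1, they had 0, 196 and 2.70 CPM.

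Genes that work with the proteasome were taken from 3 lists, and a few passed the test. Of the ubiquitin-proteasome partners, 2 of 27 passed between gates in untreated fish, where 3.71% of all genes did. In control, PBS and E. coli fish 1 of 30 passed in each, where 0.869%, 2.69% and 2.31% of all genes did. For E. coli over PBS 1 of 30 passed in ccl34b.1+ cells, where 1.51% of all genes did. Of 30 ubiquitin-proteasome partners tested at 6 months and 27 at 4 months, ubb ENSDARG00000093313, which encodes ubiquitin itself, was higher in ccl34b.1+ cells in all 4 gate comparisons. It had 2624, 1459 and 2099.7 CPM in E. coli ccl34b.1+ libraries, against 963, 637 and 597 CPM in E. coli ccl34b.1- libraries (log2 fold change 1.49 ± 0.37 (SE), adjusted p = 0.0188). In PBS fish it had 8257, 4408, 4188 and 3488 CPM, against 1449, 937, 801 and 2048 CPM (1.96 ± 0.32, adjusted p = 0.000154). The log2 fold changes were 2.31 in control fish (adjusted p = 0.00525) and 2.38 in untreated fish (adjusted p = 0.000387). In ccl34b.1+ cells ubb ENSDARG00000093313 was lower after E. coli than after PBS (log2 fold change -1.30 ± 0.35, adjusted p = 0.0464), and no other partner passed in a comparison of E. coli with PBS or of PBS with control. With each library left out in turn, the gate call for ubb ENSDARG00000093313 held in all 10 fits in untreated and all 8 in PBS fish, but was lost in 1 of 4 in control fish and 4 of 6 in E. coli fish (adjusted p up to 0.112), and the E. coli call was lost in 5 of 7 (up to 0.32). Limma voom with quality weights called it in untreated fish only (adjusted p of 0.302, 0.146 and 0.663 in control, PBS and E. coli fish). UBB ENSDARG00000002369 was higher in ccl34b.1+ cells of untreated fish (log2 fold change 1.42, adjusted p = 0.00293).

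Among 13 interferon signalling regulators tested at 6 months, SOCS1, a feedback inhibitor of JAK kinases, passed in some comparisons. In those comparisons 0.869% to 3.71% of all genes passed. SOCS1 had 37.7, 32.7 and 44.5 CPM in E. coli ccl34b.1+ libraries, against 0.488, 2.19, 0.886 and 1.72 CPM in PBS ccl34b.1+ libraries (log2 fold change 4.85 ± 1.23, adjusted p = 0.0321, but 0.0827 with limma voom). It was lower in ccl34b.1+ than in ccl34b.1- cells of untreated, control and PBS fish, with 0.488, 2.19, 0.886 and 1.72 CPM, against 117, 0.841, 37.5 and 27.1 CPM, in PBS fish (adjusted p = 0.0133, but 0.0738 with the replicate block and 0.235 with limma voom). Over the 13 regulators 11 E. coli over PBS fold changes were positive in ccl34b.1+ cells (median log2 fold change 1.14) and 10 in ccl34b.1- cells (1.04). Of 17 class I presentation genes none passed in any comparison, where 0.0% to 3.71% of all genes passed. Of their E. coli over PBS fold changes, 7 were positive in ccl34b.1+ cells (median -0.15) and 16 in ccl34b.1- cells (median 0.92). Over all genes 41.8% and 46.3% were positive, with medians of -0.19 and -0.08. The counts of both lists used TMM only, and DESeq2 size factors moved the median of all genes in ccl34b.1- cells to -0.29. Leaving out each library in turn lost the E. coli call of SOCS1 in 7 of 7 fits (adjusted p up to 0.113), its PBS gate call in 2 of 8 (up to 0.0655) and its control gate call in 4 of 4.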

How the data were processed

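The authors deposited whole-number read counts per gene, in a single table with 32520 Ensembl gene IDs and 28 libraries, whose columns were assigned to samples through the titles (0 columns of other samples). Per the submitters' processing notes, STAR, featureCounts and DESeq2 were used with GRCz11 (danRer11); versions, annotation release, strand setting and treatment of multi-mapped reads are not given in the sources used here, so reads of near-identical copies are uncertain. Per the labels, each library held 100 sorted cells, was picked from 3 sorts of that gate and fish for the quality of its cDNA, and came from another fish than the rest of its group. A supplied table named 29201 IDs (89.8%), and RefSeq (GRCz12tu) was used only for synonyms.

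From the counts, edgeR 4.0.16 in R 4.3.3 was run over all genes (TMM, filterByExpr, robust quasi-likelihood fits, two-sided, Benjamini-Hochberg adjustment, threshold 0.05): the 10 untreated libraries alone, and the 18 libraries of the injection experiment as 6 groups with 1 estimate of the spread. Every p is from edgeR unless another tool is named. CPM used TMM-scaled totals within an experiment. The filter kept 8658 genes at 4 months and 12421 at 6 months, and library totals were 2241693 to 30370520 counts. Floors cover counting error only, and no molecular identifiers were used. The SE of a fold change was the size of the log2 fold change over the square root of its edgeR F statistic. It thus includes the fitted spread between libraries. A fold against a group at 0 used a floor of 3 counts over the group, and none is given against 1 to 3 counts.

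The genes, role classes and partner lists were chosen with earlier results of these data known. Beyond sums, named genes were all immunoproteasome genes, those past the threshold, the 2 smallest p-values in each direction of a comparison, the gene with the highest mean CPM of each class, and partners past the threshold, of which 1 is not reported here. PSMA4, PSMD14, PSMC1 and the second copies of PSMA6, PSMD2, PSMD4 and PSMD11 were named after their values were seen. Of the lists, 31 IDs of ubiquitin-proteasome partners (30 of 35 symbols matched), 17 of class I presentation and 13 of interferon regulators (of 14 symbols) were found. Alternatives were DESeq2 1.42.0 (adjusted p left as NA where it gave none), limma 3.58.1 voom with quality weights, DESeq2 size factors, no filter, other sets of libraries, control fish as comparator, a replicate block, and omission of single libraries. The fits were tested on simulated data with known folds, with recovery required only at a small simulated spread. That check does not show the power at the spread of these libraries. No sequences or coordinates were used.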

Additional observations from a re-analysis of the deposited data

Results flagged for a closer look

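Of 174 gene, class or ratio values examined in groups of 4 or 5 libraries, 13 (7.47%) had 1 library far from the others of its group, where chance flags about 1 in 20 groups, and none of these was tested further. In the untreated ccl34b.1- group, library 2 had 29.8 CPM of psma2a (0 to 5.45 CPM in the others) and 104.6 CPM of PSMD9 (0 to 18.1), library 5 had 84.8 CPM of PSMC6 (0 to 18.7), and library 4 had 0.129 CPM of psmb11b (0 in the others). In the untreated ccl34b.1+ group, library 4 had 1.49 CPM of psma6l (50.3 to 69.4 in the others) and a PSMB10 to PSMB7 log2 ratio of 11.91 (-1.19 to 1.59), since PSMB7 was at 0 there. The size of that ratio depends on the 0.5 added to each count, and it was 9.91 with 2 added. Library 2 had 33.3 CPM of PSMD4 (7.01 to 12.2), and library 5 had 131.8 CPM over the activators and inhibitor (25.8 to 49.6). In PBS fish, ccl34b.1+ library 1 had 136 CPM of psmb12 (32.9 to 36.3). PBS ccl34b.1- library 4 had 22.2 CPM of PSMC3IP (0 to 0.344), 2.6 CPM of PSME3IP1 (0), 24.8 CPM of both together (0 to 0.344) and 20.9 CPM of PSMD5 (0).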

How the results depend on the processing

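No proteasome gene passed in any of the 9 edgeR comparisons, and other settings moved that count in 5. Limma voom called 1 in untreated fish between gates, 1 in the E. coli gate comparison, 1 in each gate for E. coli over PBS and 1 in the interaction. DESeq2 called 3 in the E. coli gate comparison, 1 for E. coli over PBS in ccl34b.1+ cells, 3 in ccl34b.1- cells and 1 in the interaction. Leaving out each library gave 0 to 2 in the E. coli gate comparison and 0 elsewhere. The cause was not tested.

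The log2 ratio of summed levels, 0.301 between gates in control fish, was 0.015 with plain totals and 0.116 with DESeq2 size factors (0.208 to 0.389 without 1 library). For E. coli over PBS it was 0.522 in ccl34b.1- cells, 0.282 with size factors and 0.333 to 0.628 without 1 library, and in ccl34b.1+ cells 0.403 to 0.654 without 1 library. For PBS over control in ccl34b.1- cells it was 0.565, and 0.738 with totals (0.509 to 0.618 without 1 library). These scalings were chosen after seeing the data.

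Of 799 settings over 61 single-gene results, 717 kept direction and side of the threshold, 48 lost a call, 10 gained one and 24 reversed. Reversed log2 values came in the following results, each with its range over fits without 1 library. Between gates, PSMA3 in untreated fish ranged from -0.81 to 0.033, and psma6l in PBS fish from -1.91 to 0.48 and gave 1.65 with voom. PSMD5 ranged from -7.43 to 1.17 for E. coli over PBS in ccl34b.1- cells and from -0.70 to 7.92 for the interaction. For E. coli over PBS in ccl34b.1+ cells, psmb12 ranged from -0.50 to 0.79 (-0.18, -0.18 and -0.20 among the reversed) and gave -0.021 with only the compared libraries, PSMB8 ranged from -0.38 to 0.49 (0.11 and 0.13 among the reversed) and gave 0.35 with voom, and PSMB9 gave 0.17 against control fish. In ccl34b.1- cells, psmb13a ranged from -0.002 to 0.73, PSMB8 from -2.63 to 0.27 (0.10 and 0.23 among the reversed) with 0.19 against control fish, and PSME1 from -0.58 to 0.30 with 0.43 under voom and 0.41 against control fish.

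The labels do not say whether equal numbers in both gates mark the same fish. Same-numbered libraries of the gates had correlated deviations of 0.003 to 0.039 over 14 pairs, and differently numbered ones of -0.039 to 0.022. Of the 28 libraries 24 correlated best with their own number (10 of 10 in untreated, 6 of 6 in E. coli, 4 of 8 in PBS and 4 of 4 in control fish). With 2 control fish the deviations of a gate mirror each other, so the 4 control matches are 1 outcome. Most libraries thus matched their own number, but the correlations between these libraries of 100 cells were weak. Whether the numbers mark the same fish was not tested. The main gate tests took the libraries as unpaired, although each fish gave 1 of each gate, and the replicate block was the alternative. The replicate block called 0 proteasome genes in all 5 fits, reversed psma6l between gates in PBS fish (0.86) and lost the PBS gate call of SOCS1 (adjusted p = 0.0738). No paired analysis was possible because E. coli, PBS and control fish were different fish for the comparisons between treatments.

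Over all genes, calls ranged with the alternatives, single-library omissions left aside, from 187 to 782 (untreated gates), 101 to 672 (control), 346 to 1102 (PBS) and 112 to 1589 (E. coli). They ranged from 152 to 981 and 9 to 1194 (E. coli over PBS in ccl34b.1+ and ccl34b.1- cells), 0 to 224 and 0 to 126 (PBS over control) and 28 to 596 (interaction). Omission of 1 library gave 231 to 315 (untreated gates), 227 to 308 (PBS gates) and 162 to 351 (E. coli gates). It gave 101 to 162 and 26 to 90 for E. coli over PBS in ccl34b.1+ and ccl34b.1- cells, and 14 to 55 for the interaction. A count of 0 sets an upper limit only, and 190 of 1652 values were 0.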

Other observations

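The copies of PSMA6 took unequal shares across the other groups as well. In untreated ccl34b.1- libraries PSMA6 ENSDARG00000013966 had 50.4, 0, 39.7, 55.6 and 0 CPM and PSMA6 ENSDARG00000019398 had 73.4, 0.322, 0.502, 24.7 and 29.5 CPM. Of the 2 libraries at 0 for PSMA6 ENSDARG00000013966, library 2 was near 0 for the other copy as well (0.322 CPM), and library 5 had 29.5 CPM of it. In untreated ccl34b.1+ libraries they had 55.6, 3.69, 49.7, 17.8 and 63.6 CPM and 26.9, 13.4, 25.8, 0.157 and 13.1 CPM. The copies of PSMD2 also diverged in some libraries. PSMD2 ENSDARG00000099653 had 5.88, 6.95 and 115 CPM and PSMD2 ENSDARG00000103190 had 0, 7.62 and 67.9 CPM in E. coli ccl34b.1- libraries, both highest in library 3. In untreated library 3, PSMD2 ENSDARG00000099653 had 0 CPM in the ccl34b.1+ gate and 19.1 CPM in the ccl34b.1- gate, where PSMD2 ENSDARG00000103190 had 10.2 and 0 CPM. How reads shared by copies were assigned is not given in the sources used here.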
